A study of Homo sapiens with 2 samples.

Results

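G1/S transition cells are proliferating cells that express the genes switched on at the end of G1 while they hold little histone mRNA of S phase and few transcripts of mitosis. In these single-cell transcriptomes of the Merkel cell carcinoma line WaGa, a cell was counted among them by 3 conditions. At least 4 of the 8 genes CCNE1, CCNE2, CDC6, GINS2, UNG, MCM5, DTL and CDC45 were above 0. Fewer than 5 of the 8 mitotic genes CCNB1, CCNB2, CDC20, PLK1, AURKA, ASPM, CENPE and HMMR were above 0. The histone H4 gene HIST1H4C was below 50 unique molecular identifiers (UMIs) per 10000 UMIs of the cell. In all, 2808 of 10816 cells met these conditions, 1428 of 6679 in the treated library and 1380 of 4137 in the untreated library.

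WaGa is an established human line of a neuroendocrine skin cancer, is positive for Merkel cell polyomavirus, and was kept as a suspension culture in RPMI medium. The treated library came from WaGa cells given domatinostat, an inhibitor of class I histone deacetylases supplied in DMSO, and the untreated library came from WaGa cells labelled as having no treatment. The labels gave no dose, no duration and no statement on whether untreated cells received DMSO. Each condition was 1 library of the same line, tied to its treatment only by a word in the cell names, so no difference has a replicate check, no test was possible, and every interval is a 95% exact interval that covers counting error only.

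In a dividing cell, D-type cyclins with CDK4 or CDK6 and cyclin E with CDK2 phosphorylate the retinoblastoma protein RB, which frees E2F transcription factors to switch on genes for DNA replication. CDC6 and CDT1 load the MCM helicase onto origins, CDC45 and the GINS complex turn the loaded helicase into a working one, and S phase then begins. In S phase the cell makes replication-dependent histones in bulk, and later the MuvB complex with MYBL2 and FOXM1 governs the genes of G2 and mitosis through short promoter elements named CHR. In Merkel cell carcinoma cells that carry the polyomavirus, a truncated viral large T antigen that binds RB is retained.

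The promoters of the genes that chose the cells are shown because the textbook regulator of this transition, E2F, is known to bind a short element there. A window from 250 bases before to 50 bases after the start of each gene was read from RefSeq on GRCh38.p14, whereas the deposited values were counted on hg19. The windows were searched on both strands for TTT and CG around a pair of bases that are each G or C (TTTGGCG is one of the forms), and matches, which can overlap on opposite strands, stand in capitals. Promoters are counted once per gene. Where a gene had several windows, a match in any of them counted, and the window with the most of these matches is shown. CDC6, which loads the helicase, has matches on either side of its start (chr17:40287629-40287928, plus strand). DTL, part of a ubiquitin ligase that removes CDT1 once DNA is being copied, has a pair of neighbouring matches (chr1:212035498-212035797, plus strand). E2F1, itself an E2F factor and not a gene of the rule, has 3 matches, of which a pair overlaps (chr20:33686336-33686635, minus strand).
CDC6: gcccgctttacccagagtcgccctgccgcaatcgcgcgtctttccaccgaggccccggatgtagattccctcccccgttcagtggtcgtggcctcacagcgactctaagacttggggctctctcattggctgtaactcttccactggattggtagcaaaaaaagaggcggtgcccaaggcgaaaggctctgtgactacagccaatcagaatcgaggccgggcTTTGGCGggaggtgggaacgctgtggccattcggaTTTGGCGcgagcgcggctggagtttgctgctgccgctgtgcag
DTL: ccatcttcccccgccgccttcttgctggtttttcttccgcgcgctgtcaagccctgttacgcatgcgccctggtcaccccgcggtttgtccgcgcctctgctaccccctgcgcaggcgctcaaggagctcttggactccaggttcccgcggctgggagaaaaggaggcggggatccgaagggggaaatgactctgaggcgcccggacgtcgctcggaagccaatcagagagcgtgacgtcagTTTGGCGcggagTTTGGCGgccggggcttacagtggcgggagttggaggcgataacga
E2F1: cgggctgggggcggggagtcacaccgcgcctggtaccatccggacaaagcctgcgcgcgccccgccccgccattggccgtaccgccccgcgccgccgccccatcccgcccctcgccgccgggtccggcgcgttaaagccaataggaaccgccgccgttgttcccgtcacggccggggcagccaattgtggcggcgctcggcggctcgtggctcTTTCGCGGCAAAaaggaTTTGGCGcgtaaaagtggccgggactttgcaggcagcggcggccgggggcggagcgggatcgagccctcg
Of the 8 genes of the rule, 6 had a promoter in the table, and 5 of these held such a match, against 10.4% of all 27305 promoters and 17.6% of the promoters of genes measured in both libraries. CCNE1 was the one without these letters in its window. Matches stood in 8 of 13 promoters of origin licensing genes, 8 of 11 of origin firing genes and 8 of 19 of replication fork genes. A match describes the letters and does not show that a factor binds there.

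The 2 libraries differed in how many cells met the rule, by more than counting error. G1/S cells made up 21.4% of the treated library (20.4% to 22.4%) and 33.4% of the untreated library (31.9% to 34.8%), a difference of -11.98 percentage points. The histone-rich cells, with HIST1H4C at or above 50 per 10000, took 32.4% of the treated library and 11.8% of the untreated library. The mitotic cells, with 5 or more mitotic genes above 0, took 15.2% and 20.3% of the treated and untreated libraries, and the remaining cells, which passed both limits with fewer than 4 G1/S genes, took 31.0% and 34.5%. The bars of class shares thus show fewer G1/S cells and more histone-rich cells in the treated library.

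**Figure D1:**
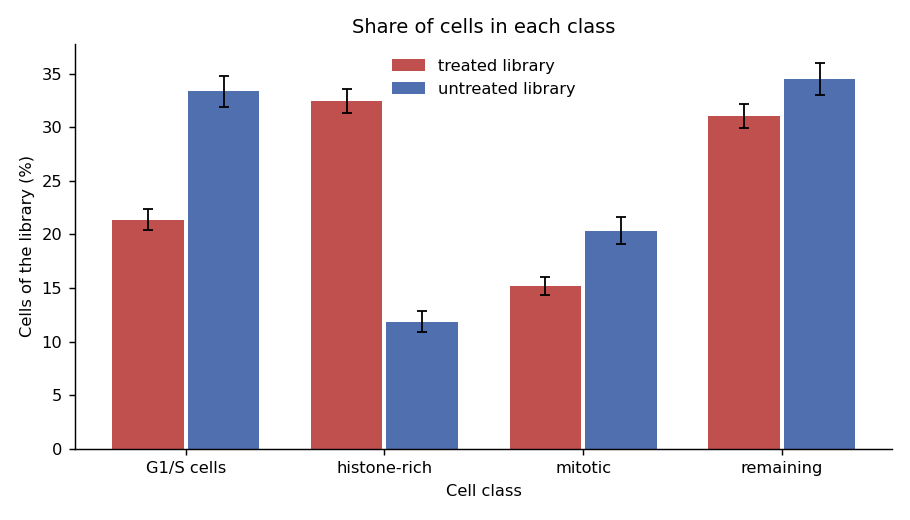
Share of cells in each class, in percent of the cells of the library, with the treated library left of the untreated one and 95% exact binomial intervals as error bars. G1/S cells are at 21.4% in the treated library and 33.4% in the untreated library, and histone-rich cells at 32.4% and 11.8%.

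Depth bears on these shares, since a gene is more often above 0 in a cell with more UMIs. G1/S cells had a median of 9198 UMIs in the treated library and 11903 in the untreated library, and the remaining cells, from which the count of G1/S genes sets them apart, had 6329 and 7588. With each cell thinned to 4351 UMIs, 8.20% of 6012 treated cells and 10.2% of 3892 untreated cells still met the rule, and 904 treated and 980 untreated G1/S cells joined the remaining class. Thinned to 8702 UMIs, which 3259 treated and 2860 untreated cells reached, the shares were 23.0% and 33.7%. Among cells of 8000 to 12000 UMIs, without thinning, they were 31.5% of 2496 treated cells and 45.1% of 1355 untreated cells. The treated share was the lower one in each of these comparisons. How much of the difference goes with depth and how much with treatment cannot be told apart, because the libraries differ in both. The histone limit also enters the shares. It alone left out 481 of 6679 treated and 113 of 4137 untreated cells, which met the other conditions. The share without this limit was not tested.

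The count of G1/S genes is a graded score and the classes meet without a gap. Exactly 4 of the 8 genes were above 0 in 561 treated and 461 untreated G1/S cells, and exactly 3 in 689 treated and 467 untreated cells just outside. ASF1B, a chaperone that hands histones H3 and H4 to new DNA, stood at 69.5 counts per 1000000 UMIs of the class (CPM) just inside this limit and 47.0 CPM just outside it in the treated library, and at 99.9 and 65.2 CPM in the untreated library. At the histone limit, 22 treated and 11 untreated G1/S cells had HIST1H4C at 40 to 50 per 10000, beside 37 treated and 13 untreated cells at 50 to 60 that met the other conditions. At the mitotic limit, 40 treated and 28 untreated G1/S cells had 4 mitotic genes above 0. The median G1/S cell had 5 of the 8 G1/S genes and 1 of the 8 mitotic genes above 0 in both libraries.

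The genes that chose the cells are given as a description. CCNE1, which encodes cyclin E1, stood at 83.0 CPM in treated G1/S cells, against 20.7 CPM in histone-rich, 5.39 CPM in mitotic and 25.3 CPM in remaining cells of that library, and at 75.0 CPM in untreated G1/S cells, against 19.2, 4.75 and 17.9 CPM in the same classes. CCNE2, for cyclin E2, stood at 150 CPM in treated G1/S cells and 62.6 CPM in other treated cells, and at 121 and 35.4 CPM in the untreated library. UNG, the uracil-DNA glycosylase, stood at 99.2 CPM in treated G1/S cells and 30.0 CPM in other treated cells, and at 66.8 and 17.3 CPM in the untreated library. All 3 had their highest level in G1/S cells in both libraries. CDC45 did not: it stood at 52.0 CPM in treated G1/S cells and 71.3 CPM in histone-rich ones, and at 60.1 and 71.7 CPM in the untreated library. Both cyclin E genes were above 0 in 42.3% of treated and 46.9% of untreated G1/S cells, CCNE2 alone in 35.8% and 30.6%, CCNE1 alone in 14.2% and 12.2%, and neither in 7.70% and 10.3%.

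ASF1B and TCF19 are markers of the transition that the rule did not use. TCF19 is a gene whose transcript is known to peak at the start of S phase. ASF1B, the chaperone, stood at 105 CPM in treated G1/S cells, against 120 CPM in histone-rich, 40.9 CPM in mitotic and 34.0 CPM in remaining cells, and at 155 CPM in untreated G1/S cells, against 159, 39.1 and 42.2 CPM. TCF19 stood at 70.9 CPM in treated G1/S cells, against 70.1, 20.8 and 32.8 CPM, and at 87.0 CPM in untreated G1/S cells, against 68.1, 12.8 and 36.1 CPM. Both markers set G1/S cells apart from mitotic and remaining cells. Against histone-rich cells, ASF1B had a ratio of 0.879 in the treated and 0.975 (0.906 to 1.05) in the untreated library, and TCF19 of 1.01 (0.933 to 1.10) and 1.28 (1.15 to 1.43). ASF1B was above 0 in 49.6% of treated and 67.3% of untreated G1/S cells, in 66.1% of treated and 82.0% of untreated histone-rich cells, whose median depths were 10205 and 13299 UMIs, and in 31.5% of treated and 36.4% of untreated mitotic cells, with 10936 and 14418 UMIs. Thinned to 4351 UMIs, ASF1B was above 0 in 31.4% of treated and 41.8% of untreated cells that had been G1/S cells at full depth, in 39.0% and 47.6% of the histone-rich ones, and in 15.3% and 14.8% of the mitotic ones. At both depths the share in G1/S cells lay above that in mitotic cells and below that in histone-rich cells. Measured by ASF1B and TCF19, the cells lay well above mitotic and remaining cells and near histone-rich cells, so the name G1/S rests on the rule, and these markers do not divide late G1 from S phase.

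**Figure D2:**
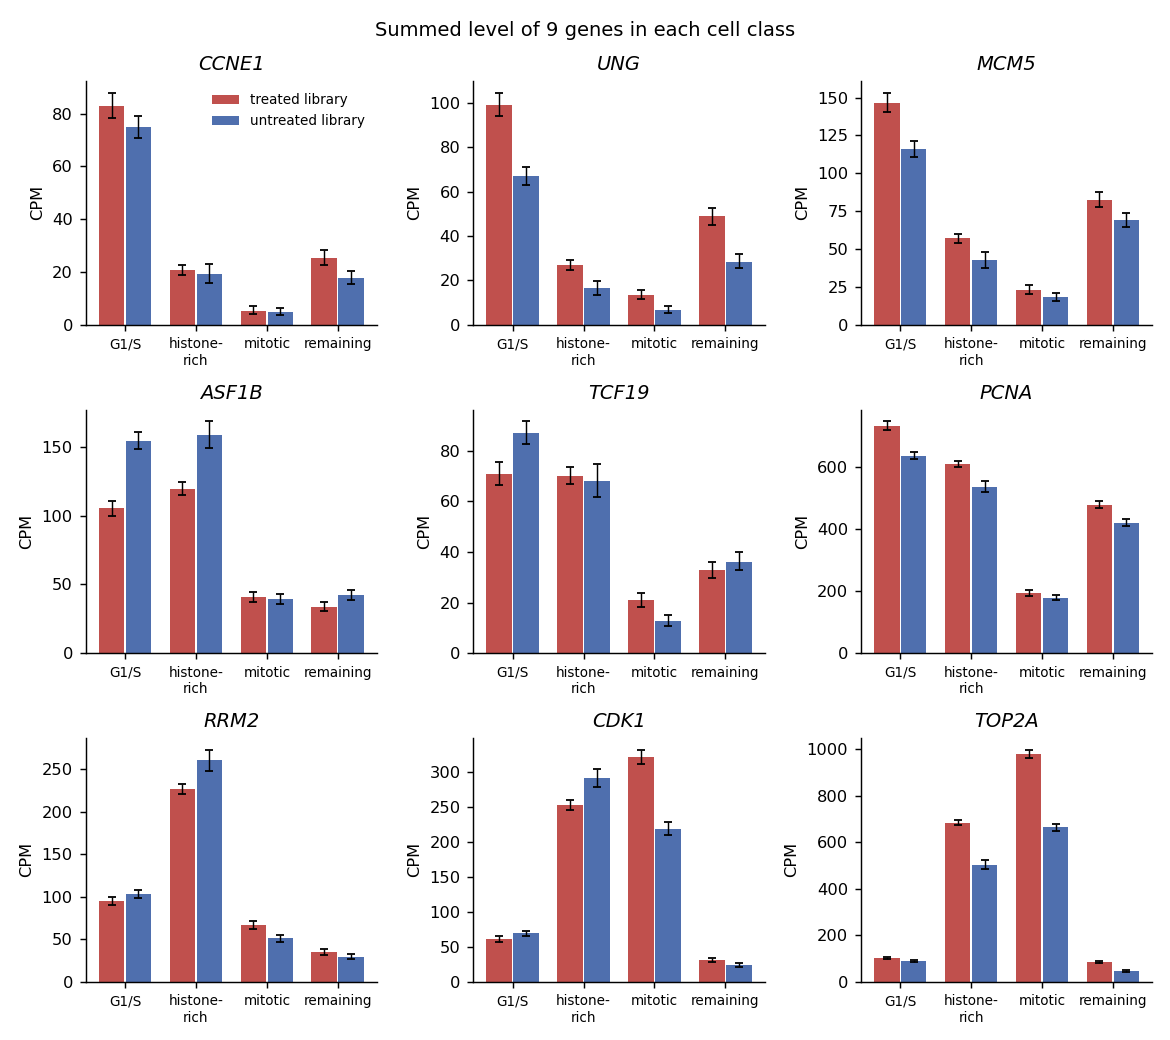
Summed level of 9 genes in CPM, by class, with the treated library left of the untreated one and exact 95% Poisson intervals as error bars. CCNE1, UNG and MCM5 chose the cells and are highest in G1/S cells; ASF1B and TCF19 are at 105 and 70.9 CPM in treated G1/S cells, near the 120 and 70.1 CPM of histone-rich cells, and RRM2, CDK1 and TOP2A are highest in other classes.

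Across all genes with at least 200 UMIs, 405 of 10303 (3.93%) reached a ratio of 1.5 upward in treated G1/S cells over the other treated cells, and 622 (6.04%) reached it downward. In the untreated library 801 of 10064 (7.96%) were higher and 975 (9.69%) lower. These shares are the background for every count of a list given here, and, because the cells were chosen on expression in the same library, the counts describe the cells and are no test. Over all measured genes the log2 ratio had a median of 0.0018 in the treated and -0.043 in the untreated library. UMIs here come from the 3′ end of transcripts and are not scaled by length, so levels are compared between cells and not between genes.

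Among regulators of the G1 to S step, E2F1 stood at 177 CPM in treated G1/S cells and 112 CPM in other treated cells, and at 188 and 87.2 CPM in the untreated library, ratios of 1.58 (1.51 to 1.66) and 2.15 (2.04 to 2.27). CCND3, for cyclin D3, stood at 92.2 and 49.0 CPM in the treated and at 110 and 49.5 CPM in the untreated library, ratios of 1.88 and 2.22. CDK2, the partner of cyclin E, stood at 24.5 CPM in treated G1/S cells and 19.96 CPM in other treated cells, and at 22.6 and 13.3 CPM in the untreated library. Against all other cells, E2F1 and CCND3 were thus at least 1.5-fold higher in G1/S cells of both libraries, and CDK2 in those of the untreated library. Those other cells include mitotic cells. Against remaining cells alone, CCND3 was past the fold in both libraries, and E2F1 and CDK2 only in the untreated one. Against histone-rich cells, E2F1 was past it only in the untreated library, and CCND3 and CDK2 in neither. The inhibitor genes went the other way or were mixed. CDKN1B, for p27, which blocks cyclin E with CDK2, stood at 37.0 CPM in treated G1/S cells and 64.4 CPM in other treated cells, and at 22.6 and 42.7 CPM in the untreated library. CDKN1A, for p21, stood at 61.0 and 33.0 CPM in the treated library, a ratio of 1.85, and at 109 and 91.4 CPM in the untreated library, a ratio of 1.20. In untreated remaining cells, with 0 to 3 G1/S genes above 0, it stood at 123 to 163 CPM by number of genes. In untreated G1/S cells, with 4 to 8, it stood at 77.8 to 117 CPM. The treated ranges were 42.7 to 49.7 and 59.2 to 82.8 CPM. Against remaining cells, CDKN1A was thus lower in untreated and higher in treated G1/S cells, past the fold in neither. CKS1B, a cofactor in the removal of p27 that is also transcribed into mitosis, was lower in G1/S cells, at 110 and 593 CPM in the treated and 116 and 587 CPM in the untreated library. Against remaining cells alone, neither CDKN1B nor CKS1B was 1.5-fold lower in either library. Of 18 measured genes of the RB and E2F families and their complexes, 1 was at least 1.5-fold higher and 4 were lower in treated G1/S cells, and of 17 in the untreated library 3 were higher and 3 lower. Of 13 measured G1 cyclin, kinase and inhibitor genes, 2 were at least 1.5-fold higher and 4 lower in treated G1/S cells, and 4 higher and 3 lower in untreated ones.

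Some subunits of the helicase that is loaded before S phase were higher in G1/S cells. Of 14 origin licensing genes outside the rule, 3 were at least 1.5-fold higher in treated G1/S cells (MCM3, MCM6 and MCM4, subunits of the helicase) and 6 in untreated ones (the same 3 with ORC1, CDT1 and GMNN), and none was 1.5-fold lower in either. MCM3 stood at 227 CPM in treated G1/S cells, 152 CPM in histone-rich, 44.7 CPM in mitotic and 156 CPM in remaining cells, and at 233, 152, 46.8 and 158 CPM in the same classes of the untreated library. MCM2, another subunit of the same ring, stood at 38.1 CPM in treated G1/S cells and 37.3 CPM in remaining cells, and at 35.3 and 36.2 CPM in the untreated library. MCM3 therefore stood out in G1/S cells, and MCM2 did not differ from the remaining cells beyond counting error, with ratios of 1.02 (0.902 to 1.16) and 0.976 (0.859 to 1.11). Of the origin firing genes, which turn the loaded helicase on, 0 of 13 were 1.5-fold higher and 3 lower in treated G1/S cells, and 3 of 12 higher and 1 lower in untreated ones.

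The replication fork genes, which encode the clamp, its loader, polymerases and ligase, stood higher in G1/S cells than in remaining cells. Against histone-rich cells, only the count of lower genes in the treated library lay above the share of all genes. Against all other cells of the library, 2 of 24 were at least 1.5-fold higher in treated and 10 of 24 in untreated G1/S cells. Against remaining cells alone, where the backgrounds were 3.15% of 8296 and 7.35% of 8582 genes, 8 of 24 treated and 14 of 24 untreated were 1.5-fold higher, and all 24 ratios were above 1 in both libraries. Against histone-rich cells, 0 of 24 were 1.5-fold higher in either library, where 4.15% and 4.3% of all genes were, and 5 treated and 1 untreated were 1.5-fold lower, where 6.76% and 5.43% of all genes were. In that comparison 16 of 24 treated and 14 of 24 untreated ratios were below 1. PCNA, the sliding clamp, stood at 735 CPM in treated G1/S cells, 610 CPM in histone-rich, 194 CPM in mitotic and 479 CPM in remaining cells, and at 638, 538, 179 and 421 CPM in the untreated library. KIAA0101, a PCNA-binding factor, stood at 227, 356, 132 and 103 CPM in these classes of the treated library and at 347, 430, 127 and 130 CPM in the untreated library. PCNA was highest in G1/S cells and KIAA0101 in histone-rich cells, in both libraries.

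Some nucleotide synthesis genes were higher in G1/S than in remaining cells and some lower than in histone-rich cells, and chromatin assembly genes were mixed. Of 16 nucleotide synthesis genes, 5 treated and 8 untreated were at least 1.5-fold higher in G1/S than in remaining cells. Against histone-rich cells, 0 of the 16 were higher in either library and 5 treated and 4 untreated were lower. Of 14 chromatin assembly and DNA methylation genes, 1 treated (SLBP) and 3 untreated (SLBP, CDCA7 and CHAF1B) were 1.5-fold higher than in histone-rich cells, and 1, ATAD2, was lower in both. RRM2, the regulated subunit of ribonucleotide reductase, stood at 94.9 CPM in treated G1/S cells, 227 CPM in histone-rich and 35.1 CPM in remaining cells, and at 104, 261 and 29.5 CPM in the untreated library. TK1, thymidine kinase, stood at 39.3, 118 and 14.5 CPM in the treated and at 59.9, 149 and 17.0 CPM in the untreated library. For RRM2 and TK1, G1/S cells lay between remaining and histone-rich cells. SLBP, which binds the stem-loop of histone mRNA, was higher in G1/S cells than in both, at 248 CPM against 164 CPM in histone-rich and 168 CPM in remaining treated cells, and at 289 CPM against 170 and 177 CPM in the untreated library. CHAF1B, a subunit of the chromatin assembly factor CAF-1, stood at 33.0 CPM in treated G1/S cells and 19.2 CPM in other treated cells, and at 33.9 and 14.3 CPM in the untreated library. Against all other cells of the library, 3 treated and 9 untreated of the 14 chromatin assembly genes were at least 1.5-fold higher in G1/S cells and 0 were lower. Of the 16 nucleotide synthesis genes, 0 were higher and 2 lower in the treated library, and 4 were higher and 0 lower in the untreated library. Of 22 DNA repair and checkpoint genes, 2 were higher and 7 lower in treated G1/S cells, and 5 higher and 3 lower in untreated ones, with the mismatch repair gene MSH6 higher in both. Of ribosome biogenesis genes, a list outside replication, 0 of 12 were past the fold in treated and 0 of 11 in untreated G1/S cells.

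Histone and mitotic genes outside the rule were low in G1/S cells, which the limits on HIST1H4C and on 8 mitotic genes had part in choosing. Of the other HIST genes with at least 200 UMIs, 18 of 21 were at least 1.5-fold lower in treated G1/S cells and 16 of 18 in untreated ones. Reads of near-identical histone copies may be shared between them, so single members are uncertain and the sum is given. All HIST genes other than HIST1H4C together stood at 303 CPM in treated G1/S cells, 1908 CPM in histone-rich and 339 CPM in remaining cells, and at 232, 2047 and 516 CPM in the untreated library. All 29 of the other G2 and mitotic genes were at least 1.5-fold lower in G1/S cells of both libraries. UBE2C, the ubiquitin-conjugating enzyme of the anaphase-promoting complex, stood at 80.5 CPM in treated G1/S cells, 1843 CPM in mitotic and 94.3 CPM in remaining cells, and at 78.0, 1619 and 74.9 CPM in the untreated library. TOP2A, topoisomerase II alpha, stood at 101, 979 and 85.5 CPM in these treated classes and at 88.2, 664 and 45.3 CPM in the untreated ones.

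Against the remaining cells alone, some of these G2 genes were higher in G1/S cells. CDK1, the mitotic kinase, stood at 60.9 CPM in treated G1/S cells and 31.5 CPM in remaining cells, a ratio of 1.93 (1.72 to 2.18), and at 69.2 and 23.4 CPM in the untreated library, a ratio of 2.96 (2.59 to 3.40). BIRC5, for survivin, stood at 25.5 and 62.8 CPM in the treated and at 21.0 and 55.0 CPM in the untreated library. PTTG1, for securin, stood at 124 and 297 CPM in the treated and at 157 and 345 CPM in the untreated library. Measured against remaining cells, CDK1 was thus higher and BIRC5 and PTTG1 were lower in G1/S cells of both libraries. Of the 29 genes, 3 of 24 measured were at least 1.5-fold higher and 7 lower than in remaining treated cells, and 12 of 25 higher and 4 lower in the untreated library. Of all genes, 1.39% in the treated and 4.84% in the untreated library were 1.5-fold lower in G1/S than in remaining cells.

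The 12 genes furthest below the other cells in both libraries, outside the rule, were PIF1, CENPA, DLGAP5, NUF2, UBE2C, CDCA3, AURKB, DEPDC1, BIRC5, CENPF, KIF14 and CDC25C. CENPA, NUF2 and CENPF act at the centromere and kinetochore, and AURKB and BIRC5 belong to the chromosomal passenger complex. PIF1, a DNA helicase, was the lowest, at 2.17 CPM in treated G1/S cells and 78.6 CPM in other treated cells, and at 1.93 and 46.9 CPM in the untreated library, ratios of 0.0276 (0.0186 to 0.0395) and 0.0412 (0.028 to 0.0584). DLGAP5, a spindle protein that binds microtubules, stood at 12.01 and 175 CPM in the treated and at 12.8 and 159 CPM in the untreated library. Its promoter is shown because it carries 3 copies of the letters of the CHR element, TTTGAA or TTCGAA on either strand, here in capitals (GRCh38.p14, chr14:55191536-55191835, minus strand). The same window held none of the E2F letters.
DLGAP5: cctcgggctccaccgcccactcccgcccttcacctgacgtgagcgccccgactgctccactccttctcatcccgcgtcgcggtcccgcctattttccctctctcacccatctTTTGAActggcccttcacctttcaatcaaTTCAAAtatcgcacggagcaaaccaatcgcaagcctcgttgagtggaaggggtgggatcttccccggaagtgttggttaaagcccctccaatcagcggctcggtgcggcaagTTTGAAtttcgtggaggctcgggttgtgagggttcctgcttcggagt
The CHR letters stood in 9 of the 10 of these 12 genes with a promoter in the table and in 51.2% of 291 promoters of genes at least 1.5-fold lower in G1/S cells of both libraries. They stood in 9.57% of 188 promoters of genes higher in both, 14.7% of those of genes measured in both, and 19.5% of all promoters. The E2F letters stood in 19.2% of the lower and 20.2% of the higher set.

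The 12 genes highest in G1/S cells of both libraries, outside the rule, were not replication genes. They were TMEM121, TRIM47, SFN, PRKAG2-AS1, CSPG5, NUPR1, LRRC26, CRIP2, C1QL1, SOX18, C6orf141 and KISS1R. SFN encodes 14-3-3 sigma, a binding protein of the cell cycle machinery, and stood at 81.5 CPM in treated G1/S cells, 36.5 CPM in histone-rich, 13.3 CPM in mitotic and 37.5 CPM in remaining cells, and at 146, 67.3, 26.8 and 78.1 CPM in the untreated library. C1QL1, a secreted protein with a C1q domain, stood at 110, 70.1, 20.8 and 42.9 CPM in the treated and at 219, 174, 43.7 and 93.3 CPM in the untreated library. NUPR1, a small stress-induced nuclear protein, stood at 24.9, 9.58, 3.29 and 9.86 CPM in the treated and at 64.8, 37.3, 14.8 and 33.3 CPM in the untreated library. Each of the 3 was highest in G1/S cells and lowest in mitotic cells. TMEM121 had the leading ratios, 2.77 (2.50 to 3.08) in the treated and 2.85 (2.59 to 3.14) in the untreated library, at 48.3 and 17.4 CPM and at 67.8 and 23.8 CPM. PRKAG2-AS1 is antisense to PRKAG2, and the sources used here did not say whether counting used the strand. None of the 8 of these genes with a promoter in the table held the E2F letters, where 17.6% of the promoters of genes measured in both libraries did. So few promoters do not set these genes apart, and the windows of ASF1B and SLBP held none of the letters either. The promoters of all genes higher in both libraries had a median GC content of 69.6%, against 62.0% for those lower in both and 65.1% for those measured.

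The levels of these genes moved with the number of G1/S genes above 0 on both sides of the limit of 4. Over cells that passed the histone and mitotic limits, ASF1B stood at 29.6 CPM with 0, 47.0 CPM with 3, 69.5 CPM with 4 and 159 CPM with 7 of the 8 genes in the treated library, and at 12.6, 65.2, 99.9 and 206 CPM in the untreated library. PCNA stood at 260, 569, 628 and 912 CPM in the treated and at 288, 485, 561 and 737 CPM in the untreated library. SFN stood at 18.3, 46.6, 65.0 and 104 CPM in the treated and at 44.0, 99.3, 123 and 158 CPM in the untreated library. All 3 stood higher at 4 genes than at 3 and higher at 7 than at 4, so the limit cuts a climb. At the low end, treated ASF1B did not climb, at 20.5 CPM with 1 and 28.2 CPM with 2 genes. MCM2 showed no such climb and stood at 34.0, 39.7, 37.2 and 38.9 CPM in the treated and at 31.4, 39.9, 38.6 and 32.7 CPM in the untreated library. After thinning to 4351 UMIs, with the score counted on the thinned cells, ASF1B stood at 25.9 CPM with 0 and 117 CPM with 5 genes in treated cells and at 32.9 and 194 CPM in untreated cells, and MCM2 at 31.8 and 38.3 CPM and at 36.1 and 24.8 CPM. With 6 genes, thinned ASF1B stood at 120 CPM in 21 treated cells and 94.0 CPM in 22 untreated cells, on 11 and 9 UMIs.

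**Figure D3:**
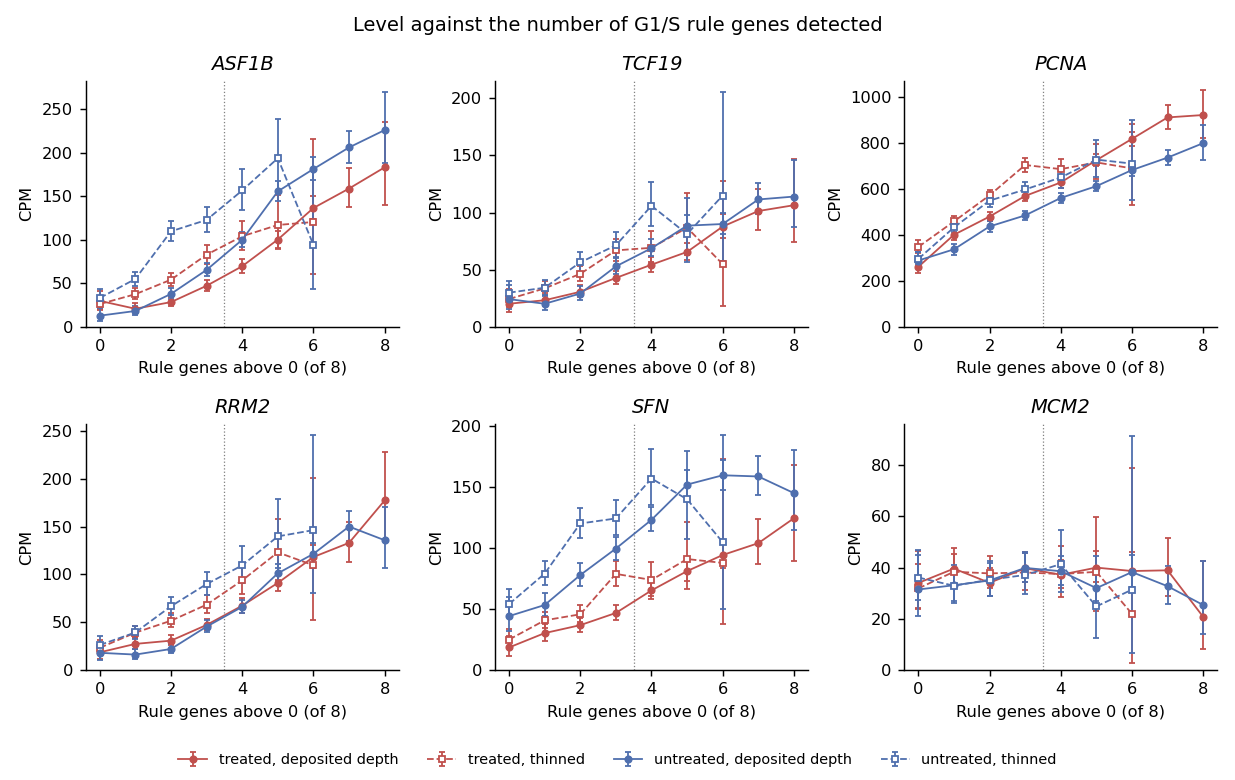
Level in CPM against the number of the 8 G1/S genes above 0, over cells that passed the histone and mitotic limits, for the treated (red) and untreated (blue) library at deposited depth (filled, solid) and thinned to 4351 UMIs (open, dashed). Error bars are exact 95% Poisson intervals, the dotted line is the limit of the rule, and points of fewer than 20 cells are left out; at deposited depth ASF1B, TCF19, PCNA, RRM2 and SFN are higher at 4 genes than at 0 in both libraries, and the MCM2 points of both depths lie between 20.7 and 41.3 CPM.

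Within the G1/S cells, HIST1H4C itself ran from 0 to just under the limit. Its median was 5.50 per 10000 in treated and 3.51 per 10000 in untreated G1/S cells, and 43.1% of treated and 70.7% of untreated ones were below 5. Split by this level, RRM2 stood at 44.2 CPM in treated G1/S cells below 2 per 10000 and at 248 CPM in those of 25 to 50, and at 75.5 and 284 CPM in untreated ones. TOP2A stood at 64.3 and 254 CPM in the same bins of the treated and at 58.5 and 295 CPM of the untreated library. ASF1B stood at 54.7 and 177 CPM in the treated and at 119 and 229 CPM in the untreated library. UNG stood at 118 and 82.2 CPM in the treated and at 72.0 and 46.9 CPM in the untreated library. RRM2, TOP2A and ASF1B thus stood higher in the G1/S cells with more HIST1H4C, while for UNG the counting intervals of the end bins overlapped. The lowest bin held 125 treated and 307 untreated cells and the highest 56 and 28.

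**Figure D4:**
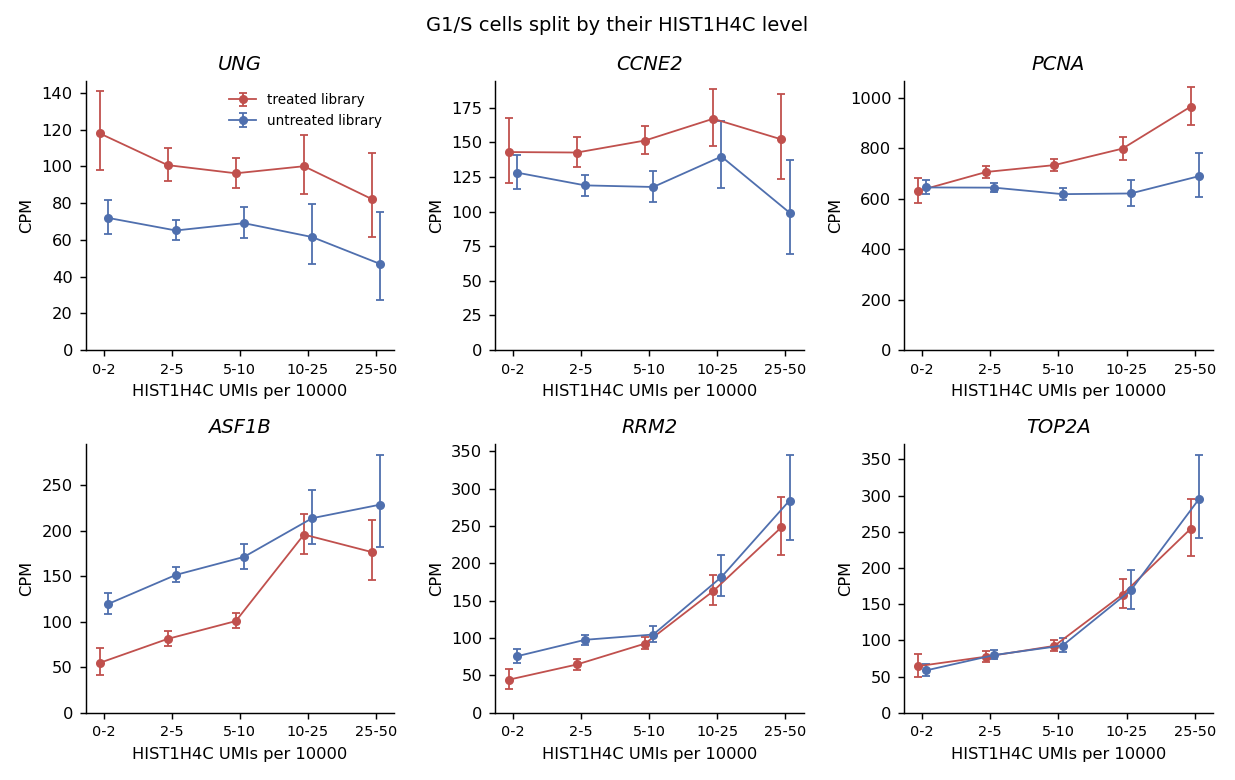
Level of 6 genes in CPM in G1/S cells split by their HIST1H4C level, in UMIs per 10000 of the cell, for the treated (red) and untreated (blue) library, with exact 95% Poisson intervals. RRM2, TOP2A and ASF1B are higher in the highest than in the lowest bin in both libraries, reaching 248 and 284 CPM for RRM2. UNG is lower there in both, with overlapping intervals. CCNE2 is at 143 CPM in the lowest and 152 CPM in the highest treated bin, and at 128 and 99.2 CPM in the untreated ones.

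Between treated and untreated G1/S cells, CDKN1B was at least 1.5-fold higher in treated cells, and CDKN1A, CDKN1C, KIAA0101 and TK1 were lower. HIST1H4C, which limited the cells, was also past the fold upward. Of all genes measured in these cells, 272 of 8761 (3.1%) were past the fold upward and 591 (6.75%) downward in treated cells, with a median log2 ratio of 0.050. Scaled by the median ratio, 186 were higher and 679 lower. Between all other cells of the libraries, 340 of 10946 genes (3.11%) were higher and 888 (8.11%) lower in treated cells. These comparisons share no cells, but each rests on the same 2 libraries.

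The replication lists had counts near this background. Of the 24 replication fork genes, 0 were at least 1.5-fold higher and 1, KIAA0101, was lower in treated G1/S cells. Of 12 measured origin firing genes, 0 were higher and 1, GINS4, was lower, with a ratio of 0.649 (0.515 to 0.813). Of 16 nucleotide synthesis genes, 0 were higher and 1, TK1, was lower. Of 20 measured repair and checkpoint genes, 0 were higher and 1, the checkpoint kinase gene CHEK2, was lower, with a ratio of 0.591 (0.457 to 0.759). Of 14 licensing and 14 chromatin assembly genes, 0 were past the fold in either direction. Counts of 0 or 1 in lists this short do not set them apart from all genes. ASF1B stood at 105 CPM in treated and 155 CPM in untreated G1/S cells, a ratio of 0.680 (0.638 to 0.726). It was also lower in treated than in untreated histone-rich cells, at 120 and 159 CPM, and remaining cells, at 34.0 and 42.2 CPM. In mitotic cells it stood at 40.9 and 39.1 CPM. With these 3 classes pooled as all other cells, it stood at 76.5 CPM in treated and 66.5 CPM in untreated cells. MKI67, the proliferation antigen, stood at 52.7 CPM in treated and 48.6 CPM in untreated G1/S cells, a ratio of 1.08 (0.979 to 1.20), and at 243 and 158 CPM in all other treated and untreated cells, a ratio of 1.54 (1.49 to 1.60). RRM2 stood at 94.9 and 104 CPM in treated and untreated G1/S cells, a ratio of 0.916, and at 134 and 88.6 CPM in all other cells, a ratio of 1.51. By class, RRM2 stood at 227 CPM in treated and 261 CPM in untreated histone-rich cells. It stood at 66.7 and 51.1 CPM in treated and untreated mitotic cells, and at 35.1 and 29.5 CPM in remaining ones. MKI67 and RRM2 were thus past the fold with all other cells pooled and not among G1/S cells, but RRM2 was lower in treated histone-rich cells. Histone-rich cells took 32.4% of the treated and 11.8% of the untreated library. The part of that share in the ratios of all other cells was not tested. KIAA0101 and TK1 were below the fold in treated G1/S cells, with ratios of 0.655 (0.627 to 0.684) and 0.655 (0.589 to 0.728). The 8 genes of the rule were not past the fold, but at least 4 of them had to be above 0 in every G1/S cell of both libraries, so their ratios only describe the cells chosen. The largest was 1.48 (1.37 to 1.61) for UNG, and CCNE1 stood at 1.11 (1.02 to 1.20).

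HIST1H4C stood at 760 CPM in treated and 502 CPM in untreated G1/S cells, a ratio of 1.51 (1.47 to 1.56). The rule caps it in both, so this ratio only describes the cells chosen. Treated over untreated, its ratio was 1.15 in histone-rich, 2.03 in mitotic and 1.13 in remaining cells. Of 8 other HIST genes with at least 200 UMIs in G1/S cells, 3 were at least 1.5-fold higher in treated ones (HIST2H2AA3, HIST1H1B and HIST2H2AC) and 0 lower. HIST1H1B, a linker histone, stood at 12.7 CPM in treated and 7.18 CPM in untreated G1/S cells.

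Among inhibitors of the cyclin kinases, CDKN1B stood at 37.0 CPM in treated and 22.6 CPM in untreated G1/S cells, a ratio of 1.64 (1.43 to 1.88). CDKN1A stood at 61.0 CPM in treated and 109 CPM in untreated G1/S cells, a ratio of 0.558 (0.514 to 0.606), and at 33.0 and 91.4 CPM in the other treated and untreated cells, a ratio of 0.361. CDKN1C, for p57, had a ratio of 0.608. CDKN2C and CDKN2D, for p18 and p19, were not past the fold, with ratios of 1.09 and 0.797. p27 mRNA was therefore higher and p21 and p57 mRNA were lower in treated G1/S cells. Among all other cells, CDKN1B had a ratio of 1.51 and CDKN1C was also past the fold downward. None of these directions was thus particular to G1/S cells. Of 11 measured p53 targets, 0 were at least 1.5-fold higher and 1, BBC3, was lower, at 7.60 CPM in treated and 17.5 CPM in untreated G1/S cells.

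The 10 genes at the high end between treated and untreated G1/S cells were ranked by the interval bound nearest to 1. GABARAP, which acts in autophagosome formation, stood at 43.7 CPM in treated and 17.5 CPM in untreated G1/S cells, a ratio of 2.49 (2.16 to 2.87). SOX2, a transcription factor of the Merkel cell lineage, stood at 102 and 52.3 CPM in treated and untreated G1/S cells, a ratio of 1.96 (1.80 to 2.13), and at 140 and 102 CPM in all other cells, a ratio of 1.38 (1.32 to 1.44). NHLH1, a neuronal basic helix-loop-helix factor, stood at 176 and 87.0 CPM in treated and untreated G1/S cells, a ratio of 2.02 (1.89 to 2.16), and at 164 and 132 CPM in all other cells, a ratio of 1.25. The ratios of SOX2 and NHLH1 in G1/S cells and in all other cells had intervals that did not overlap. The other genes with the highest ratios were TRAPPC5, GATA5, SLC7A4, IRX2, CACFD1, SNORA76 and MRPS24, between 2.06 and 2.92.

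At the low end, S100A2, a calcium-binding protein of epithelia, stood at 1.81 CPM in treated and 19.9 CPM in untreated G1/S cells, a ratio of 0.0909 (0.058 to 0.137). BATF3, a transcription factor of the AP-1 family, stood at 2.32 CPM in treated and 21.5 CPM in untreated G1/S cells, a ratio of 0.108 (0.0725 to 0.155). KLK11, a secreted serine protease, stood at 12.7 and 65.6 CPM in treated and untreated G1/S cells, a ratio of 0.194 (0.165 to 0.228), and had a ratio of 0.298 (0.270 to 0.328) in all other cells. TGFBR3L stood at 1.88 CPM in treated and 18.8 CPM in untreated G1/S cells. TCEA3, SYNGR4, ZFP36L1, NMRK2, RHOC and TMIGD2 had ratios of 0.151 to 0.185 in G1/S cells. All 10 were low in the treated library among all other cells as well, with ratios of 0.111 to 0.298.

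**Figure D5:**
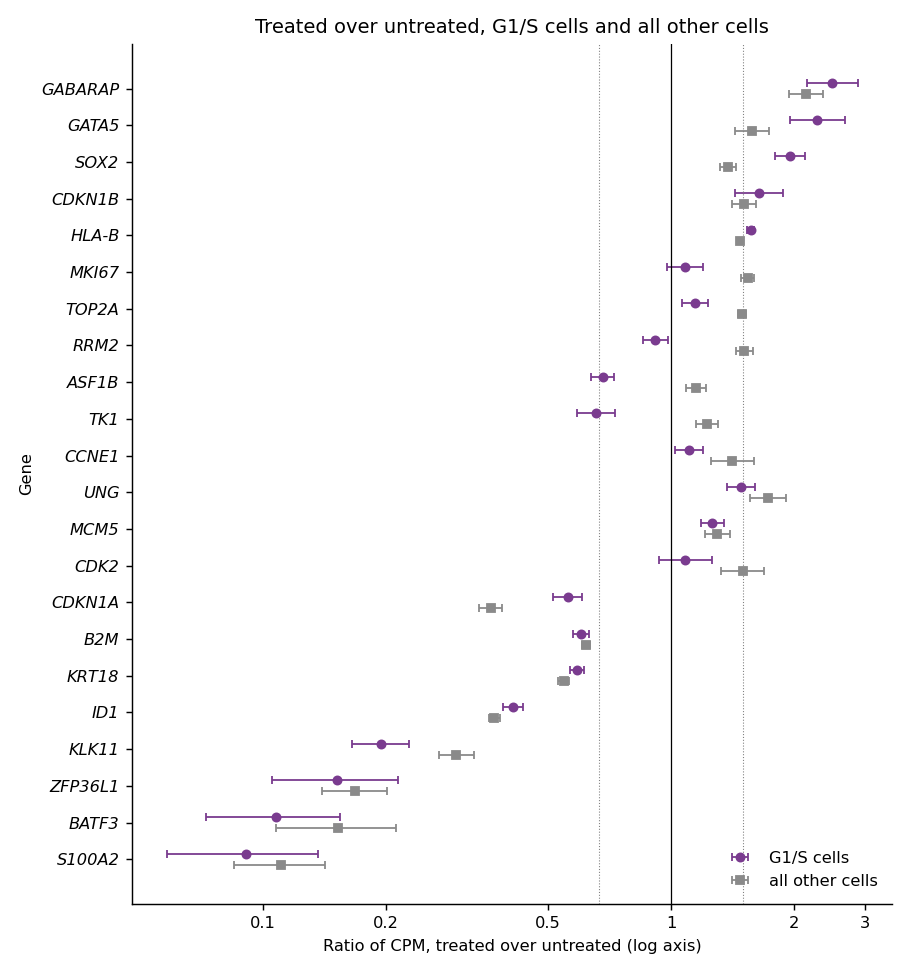
Ratio of CPM, treated over untreated, in G1/S cells (purple circles, upper) and in all other cells (grey squares, lower) for 22 genes, on a log axis with 95% exact intervals; dotted lines mark the 1.5-fold limits. MKI67, TOP2A and RRM2 lie near 1 in G1/S cells and near 1.5 in all other cells pooled, whose mix of classes differs between the libraries. S100A2 and BATF3 lie at 0.152 or below in both.

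Genes tied to the drug target, to immune recognition and to lineage are given last. HDAC1, a class I deacetylase, stood at 59.0 CPM in treated and 87.3 CPM in untreated G1/S cells, a ratio of 0.676, and 1 of 12 genes of class I deacetylase complexes, MTA2, was past the fold, with a ratio of 1.65. HLA-B stood at 1578 CPM in treated and 1007 CPM in untreated G1/S cells, a ratio of 1.57 (1.54 to 1.60), and B2M, the shared light chain of class I molecules, at 225 and 373 CPM, a ratio of 0.602 (0.577 to 0.629). Among the 14 listed antigen presentation genes, HLA-B and TAPBP were past the fold upward and B2M downward in treated G1/S cells, as were 3.1% and 6.75% of all genes. Thinned to 4351 UMIs, B2M was above 0 in 55.5% of treated and 75.4% of untreated G1/S cells, and in 62.3% and 80.8% of remaining cells. In every class the treated share was the lower one for B2M and the higher one for HLA-B, so neither direction was particular to G1/S cells. KRT8 and KRT18, the simple keratins of Merkel cells, had ratios of 0.646 and 0.589, and ID1, an inhibitor of basic helix-loop-helix factors, had a ratio of 0.410. Other lineage genes went the other way. SOX2 was past the fold upward, as given above, and CHGA stood at 1751 CPM in treated and 1173 CPM in untreated G1/S cells. All 16 listed Merkel and neuroendocrine genes summed to 3803 CPM in treated and 3961 CPM in untreated G1/S cells. CHGA, the granule protein chromogranin A, was higher in G1/S cells than in other cells of both libraries, at 1751 and 1063 CPM in the treated and at 1173 and 722 CPM in the untreated library.

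Markers of other cell types were checked, since the rule could also take in foreign cells. The summed Merkel markers stood at 2307 CPM in treated G1/S cells and 1685 CPM in other treated cells, and at 1683 and 1360 CPM in the untreated library, with 0 of 6 at 0. CHGA, one of the 6, made up most of each sum. INSM1 and SOX2, transcription factors among the 6, were lower in G1/S cells, INSM1 at 118 CPM against 189 CPM in other treated cells and at 120 against 182 CPM in the untreated library, and SOX2 at 102 against 140 CPM and at 52.3 against 102 CPM. T cell markers summed to 0 UMIs in treated and 1 UMI in untreated G1/S cells. B cell markers summed to 8.10 CPM in treated G1/S cells and 3.41 CPM in other treated cells, and to 15.0 and 6.97 CPM in the untreated library, with the defining marker MS4A1 at 0 throughout. Fibroblast markers summed to 6.44 CPM in treated G1/S cells and 21.4 CPM in other treated cells, and to 16.7 and 36.4 CPM in the untreated library, and myeloid, melanocyte and erythroid sums were at most 3.98 CPM in G1/S cells. Endothelial markers summed to 8.32 CPM in treated G1/S cells and 6.09 CPM in other treated cells, and to 6.09 and 6.83 CPM in the untreated library. The keratinocyte sum held SFN, one of the 12 highest genes, and stood at 372 CPM in treated G1/S cells and 355 CPM in other treated cells, and at 444 and 380 CPM in the untreated library. Mitochondrially encoded transcripts took 4.64% of UMIs in treated G1/S cells and 4.77% in other treated cells, and 5.42% and 4.90% in the untreated library. The libraries shared 48 cell barcodes. Without those cells, 21.4% of the treated and 33.4% of the untreated library met the rule.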

How the data were processed

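The deposited table held natural log expression values of 32742 genes in 10816 cells, which the authors had scaled to 10000 UMIs per cell before taking the natural log of the value plus 1, as the values themselves show. Per the submitters' processing notes, hg19 was the genome build and Cell Ranger and Seurat were used; their versions are not given in the sources used here. Per the labels' protocols, cells were barcoded with 10x Genomics 3′ chemistry. Each cell took its library from the treatment word at the end of its name, and 0 columns belonged to another series.

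The exponential minus 1, divided by the smallest step in its cell, gave whole UMIs for 100% of values within 1e-06. The libraries held 60160108 treated and 45562976 untreated UMIs, with medians of 8578 and 11125 UMIs per cell. UMIs were summed per class and library, and ratios of sums carry exact Clopper-Pearson 95% intervals, shares exact binomial intervals and levels exact Poisson intervals, which cover counting error only. With 1 library per group there was no test, and a gene counted as called at a ratio of at least 1.5 over at least 200 UMIs. The summing and calling steps were tested on simulated data.

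Members and gene lists were chosen with earlier results of these data known. Beside fixed genes, those named are the 12 highest and 12 lowest within libraries, the 10 highest and 10 lowest between libraries, both ranked by the interval bound nearest to 1, and up to 3 at each end of a list. UHRF1, TRAC and PECAM1 were on the lists and were not analysed here. Doublets were not called; one of the alternatives dropped the 5% of cells with most UMIs. Other alternatives changed the scaling, the weight of cells, the UMI minimum, the limits of the rule, the depth and the cells compared. Python 3.11.15, numpy 2.4.6, scipy 1.17.1, pandas 2.3.3 and matplotlib 3.10.9 were used.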

Additional observations from a re-analysis of the deposited data

Results flagged for a closer look

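CCK, the gene for the peptide cholecystokinin, and C16orf58 lay past the fold in opposite directions in the 2 libraries when G1/S cells were set against the other cells of their own library. CCK had a ratio of 0.641 (0.529 to 0.772) in the treated library, with 135 UMIs in G1/S cells and 706 in other cells. In the untreated library its ratio was 1.56 (1.36 to 1.78), with 418 UMIs in G1/S cells and 468 in other cells. C16orf58 had a ratio of 1.52 (1.16 to 1.97) in the treated library, with 86 and 190 UMIs, and of 0.654 (0.483 to 0.877) in the untreated library, with 64 and 171 UMIs. The differences between libraries were not tested, since each condition is 1 library.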

How the results depend on the processing

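No paired analysis was possible because each condition is 1 library, and for the same reason no replicate could be left out. The share of G1/S cells was lower in the treated library under all alternatives run, by 9.23 to 13.6 percentage points at deposited depth and by 2.0 points after thinning to 4351 UMIs. The 2 values outside counting error were a difference of -2.0 after thinning and of -9.23 with at least 5 of the 8 G1/S genes required. The window of 8000 to 12000 UMIs was chosen after seeing the data.

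Counts of genes past the fold moved most with the UMI minimum, the depth and the cells set against G1/S cells. In the treated library, 405 genes were higher in G1/S cells, against 128 with a minimum of 1000 UMIs, 244 after thinning and 261 when only remaining cells were compared. There, 622 were lower, against 287 with the minimum of 1000 and 115 for remaining cells. In the untreated library, 801 were higher, against 315 with the minimum of 1000, 311 after thinning and 226 in the UMI window. There, 975 were lower, against 362 with the minimum of 1000, 586 after thinning, 415 for remaining cells and 280 in the window. Between treated and untreated G1/S cells, 272 were higher, against 63 with the minimum of 1000, 64 after thinning and 172 in the window. In that comparison, 591 were lower, against 936 with a minimum of 100, 138 with 1000, 107 after thinning and 256 in the window. A higher minimum tests fewer genes, and thinning and the window use fewer UMIs or cells. The other alternatives left these counts within 1.5 times.

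Named genes past the fold changed direction under 1 alternative only, in which G1/S cells were set against remaining cells alone, which leaves histone-rich and mitotic cells out by construction. It turned 28 of 93 such genes in the treated and 18 of 120 in the untreated library. Counting also named genes not past the fold, 70 of 221 and 37 of 226 changed sign there, and up to 30 under another alternative. RRM2 was one of these, with a log2 ratio of 1.43 against remaining and -0.50 against all other treated cells. Of the genes past the fold that the text names, the log2 ratio, below 0 against all other treated cells, was then 0.18 for AURKB, 0.27 for MKI67, 0.24 for TOP2A, 0.95 for CDK1, 0.37 for HIST1H4C, 0.26 for HMMR, 0.51 for HIST1H1B, 0.090 for AURKA, 1.44 for TK1, 1.02 for CHEK2, 0.0032 for CDKN2C and 0.099 for FOXM1. In the untreated library it was 0.060 for UBE2C, 0.65 for AURKB, 0.039 for KIF14, 0.88 for MKI67, 0.96 for TOP2A, 1.57 for CDK1, 0.18 for AURKA, 0.78 for CHEK2 and 0.029 for FOXM1. Of the named genes past the fold between treated and untreated G1/S cells, 46 of 54 stayed past it after thinning and 45 of 54 in the window. Within libraries, 44 of 93 treated and 80 of 120 untreated calls stayed past the fold against remaining cells, 78 of 92 and 95 of 119 after thinning, and 91 of 93 and 94 of 120 in the window. Depth limits every share of cells given, and genes with few UMIs have wide intervals.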
